A study of Homo sapiens with 6 samples.

Results

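The genes described here encode the core of the cell's apoptosis machinery in Huh7 cells: FAS, TNFRSF10A and TNFRSF10B (death receptors), FADD (their adaptor), CASP8 and CASP9 (initiator caspases), APAF1 (the scaffold that activates caspase-9) and XIAP (a caspase inhibitor). They were matched to the table by gene name. All 8 symbols were found once each among the 50868 genes of the table, and 7 of the 8 had enough counts to be tested. FAS did not pass the filter on low counts. Huh7 is a cell line established from a human hepatoma. Both groups received a plasmid by Lipofectamine 2000 and total RNA was taken after 48 h. In the overexpression group (labelled R-98181, 3 libraries) the plasmid carried hsa_circ_0098181, a circular RNA made from exons of the gene SOX5. The control group (labelled R-NC, 3 libraries) received the control plasmid. Expression was transient and driven from the plasmid, and the labels do not say whether the replicates came from separate cultures, so p-values measure the spread between these libraries, which may be technical.

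Death receptors sit in the plasma membrane. When ligands such as FASLG or TNFSF10 (TRAIL) cluster them, the adaptor FADD binds the receptor tails and gathers procaspase-8, which activates itself and then cuts the executioner caspases. In the mitochondrial route, cytochrome c leaves the mitochondria and drives APAF1 into a wheel-shaped complex, the apoptosome, on which caspase-9 becomes active. XIAP binds and blocks caspase-9 and some of the executioner caspases. In liver cells the receptor signal commonly needs the mitochondrial route as well, with BID as the link between them. The study measured apoptosis by annexin V staining and reported more of it after overexpression in its hepatoma cell lines, Huh7 among them. The comparison here asks whether transcripts of this machinery differed between the plasmids.

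None of the 7 tested genes passed an adjusted p of 0.05 in edgeR's quasi-likelihood test, which called 6 of 15055 genes (0.0399%). XIAP was the sole gene of the 7 at an unadjusted p under 0.05, where 5.50% of all tested genes lay. Its fitted level was lower with overexpression, by 1.11 on the log2 scale (standard error 0.35, unadjusted p 0.0131, adjusted p 0.797). DESeq2 and limma also called 0 of the genes after adjustment. At an unadjusted p under 0.05 DESeq2 had 1 of them, again XIAP, and limma, in which XIAP did not pass the filter, had 0. The other 6 tested genes had log2 fold changes from -0.059 to 0.21. For 0 of the 7 did the values of one group lie clear of those of the other, against 12.9% of all tested genes. The median log2 fold change of the 7 genes was 0.046, with 5 higher and 2 lower, beside 0.0023 over all genes tested.

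Library totals ran from 11130902 to 14138262 counts, and levels are given as CPM, counts per 1000000 of the TMM-scaled total of the tested genes. SOX5, host gene of the circle, had 24906 to 33577 counts with overexpression and 380 to 453 in controls, so no library went against its label. Of 9 hepatocyte and hepatoma markers 0 were at 0, and ALB and AFP lay at 4365 to 5843 and 10801 to 13276 CPM. The 4 immune markers summed to 9.88 to 15.9 CPM and the 4 fibroblast markers to 14.5 to 18.7 CPM. Of 3 endothelial markers CDH5 had 0 counts in all libraries, VWF was at most 0.085 CPM, and PECAM1 lay at 46.9 to 59.1 CPM. Control replicate 1 stood apart in its mitochondrial share, 9.29% of counts against 6.32% to 7.04% in the other 5 libraries. In bulk RNA, a change in RNA per cell and a change in the share of cells that make a transcript cannot be told apart.

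**Figure D1:**
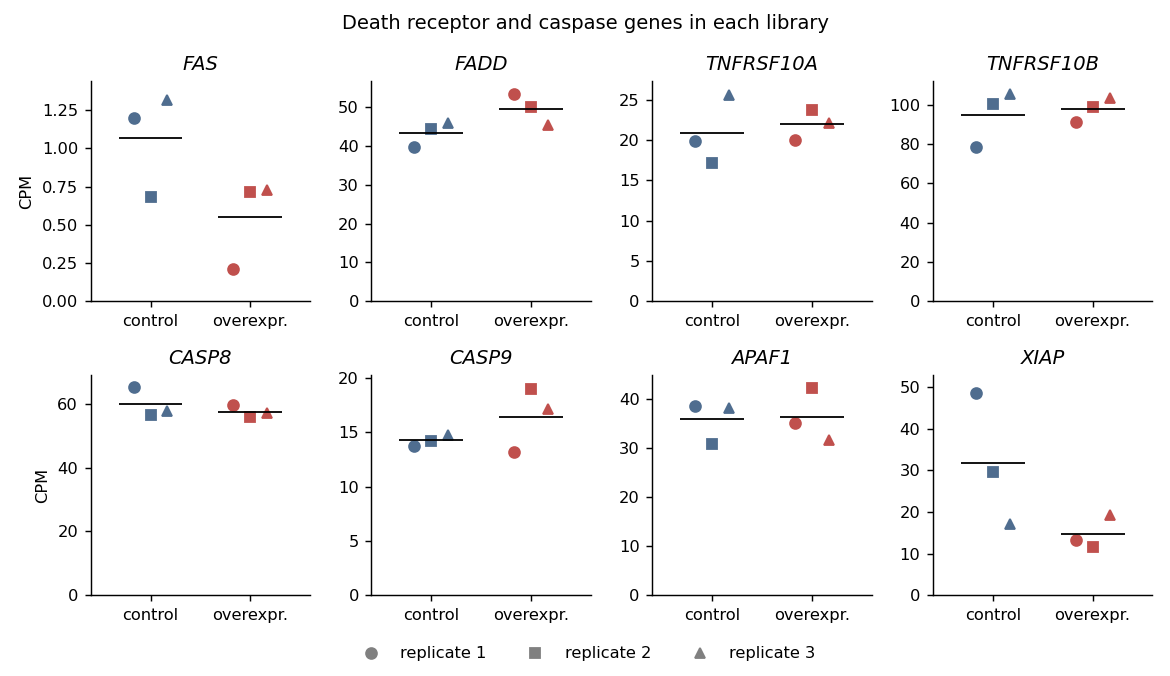
Level of each gene in each library, in CPM (y axes start at 0 and differ between panels), for the control and the overexpression group. Points are single libraries, shaped by replicate number, and bars are means of 3. The groups overlap in all 8 panels, and the 3 XIAP control points are spread from 17.1 to 48.6 CPM.

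FAS, the receptor of FAS ligand (ENSG00000026103, chromosome 10 at 88990531 to 89015785, plus strand, GRCh38), was close to the limit of detection. In replicate order it had 3, 10 and 9 counts with overexpression against 13, 8 and 16 counts without, a total of 59 reads in all 6 libraries. On the CPM scale these were 0.212, 0.714 and 0.727 against 1.20, 0.681 and 1.32. The lowest library, overexpression replicate 1, lay at the floor of 3 counts (0.212 CPM), and control replicate 2 lay below 2 of the overexpression libraries, so the groups overlapped. The difference of mean log2(CPM + 0.5) was -0.59 (exact two-sided permutation test of 3 against 3, p = 0.3). With no filter on counts edgeR gave a log2 fold change of -0.94 and an adjusted p of 0.797. Without overexpression replicate 1 the difference of means was -0.33. No difference in FAS was detected at this depth.

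The TRAIL receptors were well measured by comparison. TNFRSF10B (DR5, ENSG00000120889, chromosome 8 at 23020133 to 23069179, minus strand) carries a death domain and signals to FADD. It was at 91.3, 99.0 and 103 CPM with overexpression and at 78.4, 101 and 105 CPM in controls. All libraries but control replicate 1 lay within a narrow band, and the groups overlapped. On the log2 scale the difference was 0.046 ± 0.12 (SE; edgeR adjusted p 0.944). Its 95% interval ran from -0.24 to 0.33, which is 0.848 to 1.26 times the control level.

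TNFRSF10A (DR4, ENSG00000104689, chromosome 8 at 23190452 to 23225126, minus strand) is the second TRAIL receptor with a death domain. It was at 19.96, 23.8 and 22.1 CPM with overexpression and at 19.8, 17.2 and 25.6 CPM in controls. The lowest and the highest library were both controls, so the overexpression values lay inside the control range. The fitted log2 difference was 0.070 ± 0.16 (SE; edgeR adjusted p 0.933, 95% interval -0.30 to 0.44).

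FADD, the adaptor shared by these receptors (ENSG00000168040, chromosome 11 at 70203163 to 70207390, plus strand), was at 53.3, 50.1 and 45.4 CPM with overexpression and at 39.8, 44.4 and 45.8 CPM in controls. The highest 2 libraries were overexpression libraries and the lowest 2 were controls, with overexpression replicate 3 just under control replicate 3. The means were 49.6 ± 3.97 and 43.3 ± 3.16 CPM (SD, n = 3 each). The log2 ratio of overexpression to control was 0.20 ± 0.11 (SE; edgeR unadjusted p 0.104, adjusted p 0.797), and an exact two-sided permutation test gave p = 0.2. Its 95% interval ran from 0.966 to 1.36 times the control level.

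CASP8 encodes the initiator caspase that FADD recruits (ENSG00000064012, chromosome 2 at 201233443 to 201287711, plus strand). It was at 59.6, 55.8 and 57.1 CPM with overexpression and at 65.4, 56.5 and 57.8 CPM in controls. Apart from control replicate 1 the libraries lay within a few CPM of each other. Overexpression against control gave a log2 ratio of -0.059 ± 0.096 (SE; edgeR adjusted p 0.903). CASP8 had the tightest interval of the 7 genes, from 0.824 to 1.12 times the control level. Its spread within groups (SD of log2 CPM 0.087) was at percentile 11.8 of all genes tested.

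CASP9 encodes the initiator caspase of the apoptosome (ENSG00000132906, chromosome 1 at 15490832 to 15526534, minus strand). It was at 13.2, 19.1 and 17.1 CPM with overexpression and at 13.8, 14.2 and 14.8 CPM in controls. The controls were close together, while 2 overexpression libraries lay above and 1 below all of them. On the log2 scale the difference was 0.21 ± 0.16 (SE; edgeR adjusted p 0.806, 95% interval -0.15 to 0.56). Without overexpression replicate 2 it was 0.083.

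APAF1, the apoptosome scaffold (ENSG00000120868, chromosome 12 at 98645141 to 98735433, plus strand), was at 35.1, 42.2 and 31.8 CPM with overexpression and at 38.7, 30.7 and 38.2 CPM in controls. High and low libraries were mixed between the groups. The fitted log2 difference was 0.021 ± 0.14 (SE; edgeR adjusted p 0.981, 95% interval -0.31 to 0.35).

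XIAP, the X-linked inhibitor of apoptosis protein (ENSG00000101966, chromosome X at 123859724 to 123913979, plus strand), was the most variable of the 7. It had 187, 162 and 239 counts in the overexpression libraries against 527, 349 and 208 in the controls. These were 13.2, 11.6 and 19.3 CPM against 48.6, 29.7 and 17.1 CPM, means of 14.7 ± 4.08 and 31.8 ± 15.9 CPM (SD, n = 3 each). Control replicates 1 and 2 lay above all overexpression libraries, and control replicate 3 lay below overexpression replicate 3, so the groups overlapped by 1 pair. The fitted level with overexpression was 0.462 times that of the controls, with a 95% interval of 0.263 to 0.811. The exact two-sided permutation test gave p = 0.2, where 3 against 3 cannot go below 0.1.

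The XIAP controls differed among themselves by a larger ratio than the groups did. Its highest control was 2.84 times its lowest, the SD within groups was 0.59 on the log2 CPM scale, and this was larger than in all but 3.5% of the genes tested. The within-group chi-square per degree of freedom was 53.3 for XIAP and 2.62 to 14.7 for the other 6 (1 is the value under counting error alone), against a median of 3.72 over all genes tested. Without control replicate 1, the library with the high mitochondrial share, the XIAP log2 fold change was -0.67 (edgeR unadjusted p 0.051). The part of the mitochondrial share in the result was not tested. Reads of the XIAP pseudogenes XIAPP1 and XIAPP3, which share sequence with it, came to at most 4 in any library, and the 2 genes overlapping it in the table had 0 counts.

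**Figure D2:**
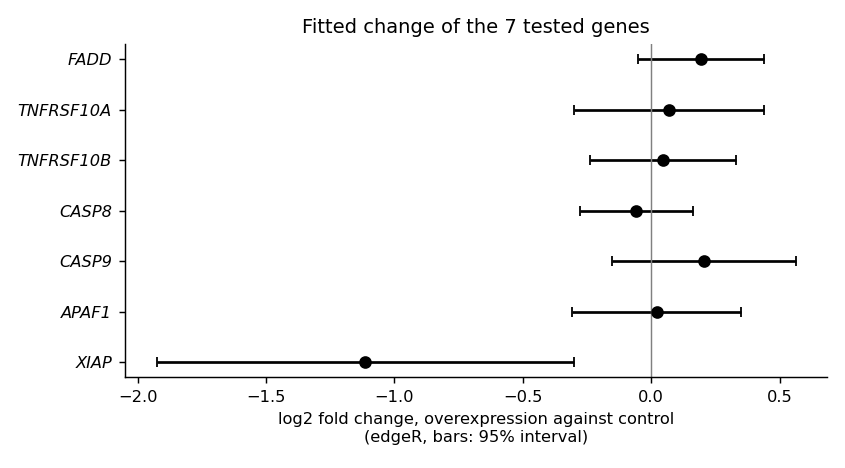
Log2 fold change of the 7 tested genes, overexpression against control, from edgeR (x axis), with bars for the 95% interval. The intervals of FADD, TNFRSF10A, TNFRSF10B, CASP8, CASP9 and APAF1 span 0, that of XIAP runs from -1.93 to -0.30, and 0 of the 7 passed after adjustment.

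The study also examined the microRNA miR-18a-3p, and the 3′ untranslated regions of these genes were searched for its seed match. MicroRNAs recognise targets mostly through bases 2 to 8, the seed. The mature sequence (RefSeq, chromosome 13 at 91350797 to 91350819 in GRCh38.p14) is printed first with the seed in capitals. The second line holds the sole match found among the 8 genes, in XIAP, with the 7 matching bases in capitals.
hsa-miR-18a-3p: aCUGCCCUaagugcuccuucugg
XIAP site: tccaagaaggcAGGGCAGttaacctttttg

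The motif searched was AGGGCAG on the transcript strand, in the longest coding transcript of each gene in GENCODE 29. The XIAP match lies in the 3′ untranslated region of ENST00000371199.7 on chromosome X at 123908174 to 123908180 (GRCh38, plus strand), which is base 993 of a region 6798 bases long. FAS, FADD, TNFRSF10A, TNFRSF10B, CASP8, CASP9 and APAF1 had 0 matches in regions of 917 to 2952 bases. Over all 19126 genes with such a region 17.5% held a match, and among the 1099 with 5000 to 10000 bases 48.2% did, so a match in a region as long as that of XIAP is common. XIAP was also the gene of the 8 with the largest fitted difference, and it was lower with overexpression (log2 fold change -1.11). By RT-qPCR the paper reported less miR-18a-3p after overexpression, and more PPARA, which it gives as a target of miR-18a-3p. The XIAP difference did not pass after adjustment (edgeR adjusted p 0.797) and its groups overlapped, so it was not weighed against the RT-qPCR of PPARA. With 1 gene the relation to the match was not tested. A match is a string of letters and not a measured binding site.

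Levels between genes were compared per length, as CPM per kilobase of merged exons. FADD was the highest at 21.6 to 28.96 over the 6 libraries, then TNFRSF10B at 15.2 to 20.4. CASP8 (7.70 to 9.03) and TNFRSF10A (5.83 to 8.67) followed, and these overlapped. APAF1 lay at 3.89 to 5.34, CASP9 at 2.50 to 3.62 and XIAP at 1.28 to 5.39. The XIAP range overlapped those of both CASP9 and APAF1. FAS was the lowest at 0.050 to 0.31, and its highest library lay under the lowest library of every other member. On the deposited FPKM scale the order was the same except that TNFRSF10A (median 5.81) stood above CASP8 (median 4.71). The length behind FPKM was 12219 bases for CASP8 and 3632 for TNFRSF10A, against merged exons of 7243 and 2951 bases. The mismatch was largest for XIAP (25432 against 9025 bases), and FADD had 1841 bases in both. Distances between genes therefore depend on the length used.

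**Figure D3:**
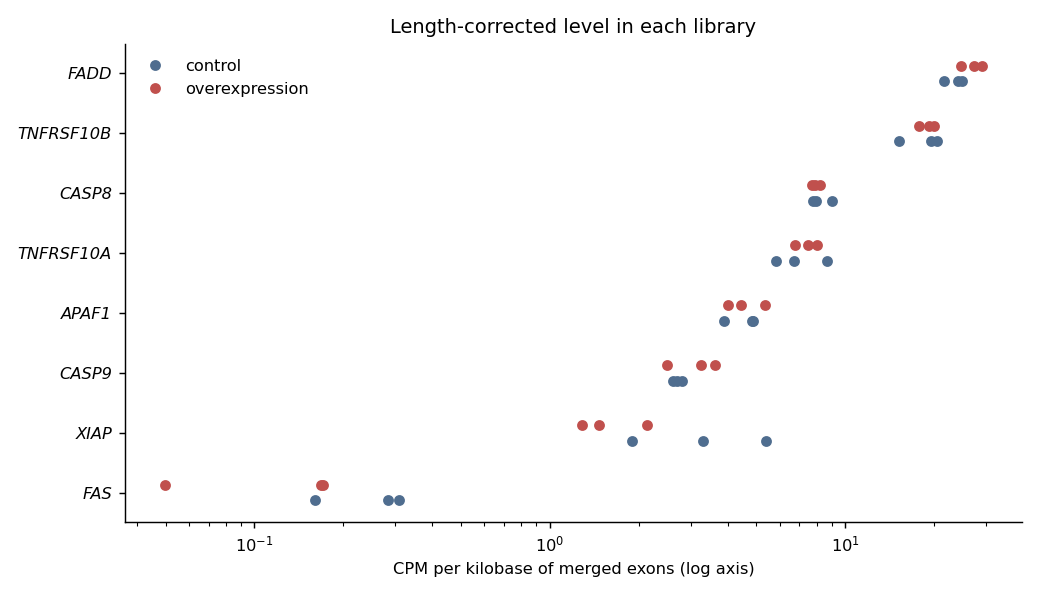
CPM per kilobase of merged exons for each gene in each library (log x axis), with control libraries in blue and overexpression libraries in red, ordered by median level. FADD is at the top with 21.6 to 28.96 and FAS at the bottom with 0.050 to 0.31.

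Some counts could not be assigned to these genes with certainty, since the counting tool and its handling of strand were not given in the sources used here. FAS overlaps ACTA2, with 0 to 6 counts, and the sum of both gave a difference of mean log2(CPM + 0.5) of -0.40 in place of -0.59. APAF1 overlaps ANKS1B, which had 61 to 104 counts, and adding them gave an APAF1 log2 fold change of 0.019. TNFRSF10A overlaps RP11-1149O23.3, with 32 to 66 counts, and the sum gave 0.096. TNFRSF10B overlaps RHOBTB2, with 115 to 227 counts, and the sum gave 0.077. FADD overlaps RP11-805J14.5, which had 0 counts, and 52.6% of the FADD stretches of 31 bases also occur in that gene. Whether FADD reads were lost through this overlap was not tested. CASP8 overlaps no other gene of the table. TNFRSF10A and TNFRSF10B shared fewer than 50 identical stretches of 31 bases.

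**Figure D4:**
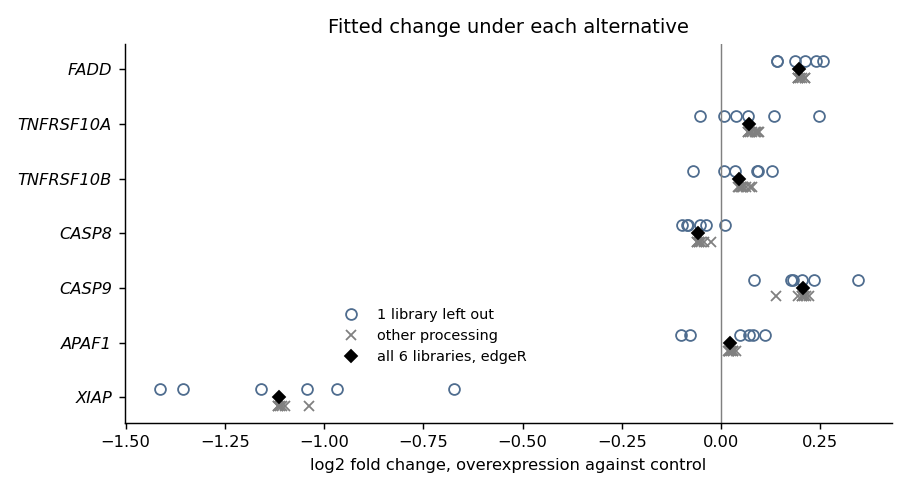
Log2 fold change of the 7 tested genes (x axis) with all 6 libraries in edgeR (diamonds), with 1 library left out (open circles) and with other normalizations, filters, tools or a replicate block (crosses). XIAP stays below 0 throughout, from -1.41 to -0.67, while TNFRSF10A, TNFRSF10B, CASP8 and APAF1 have values on both sides of 0.

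The surrounding pathway was described by a list of 60 further genes, of which 46 were tested. Of these 23 were higher and 23 lower with overexpression, with a median log2 fold change of -0.0051. edgeR called 0 of them after adjustment (adjusted p from 0.797 to 0.997), and DESeq2 and limma also called 0. At an unadjusted p under 0.05 edgeR had 3, or 6.52%, close to the 5.50% of all genes, and DESeq2 had 5. The groups did not overlap for 10 of the 46, or 21.7%, where 12.9% of all genes did so.

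Among the ligands only TNFSF10 and TNFSF12 were tested. TNFSF10, the ligand of both TRAIL receptors, was at 10.8, 9.99 and 10.3 CPM with overexpression and 9.97, 10.8 and 8.31 CPM in controls, with overlapping groups. TNFSF12 had a log2 fold change of 0.22 ± 0.44 (SE). FASLG, the ligand of FAS, had 0 counts in all 6 libraries, which allows at most 0.212 to 0.277 CPM, depending on the library. Of the other receptors, the decoy TNFRSF10D was measured with a log2 fold change of 0.10, and TNFRSF10C had 3 to 8 counts and was not tested. The range over the 6 tested receptors ran from -0.044 for TNFRSF11B, a soluble decoy, to 0.38 ± 0.45 (SE) for TNFRSF25.

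Among 7 tested adaptors and kinases the values ran from -0.14 (DAXX) to 0.22 (PIDD1, a scaffold for caspase-2). RIPK1 was at -0.065, and RIPK3, a kinase of necroptosis, had 0 counts in all libraries.

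The 6 regulators of caspase-8 had log2 fold changes from -0.51 to -0.052, with a median of -0.21, and 2 of them lay at an unadjusted p under 0.05, against 5.50% of all genes. Of all 15055 tested genes 7454 were lower, and no test of the group was made. CASP10 (-0.052 ± 0.43) and PEA15 (-0.076 ± 0.14) lay within 1 SE of 0. ITCH, a ubiquitin ligase, was at 99.9, 105 and 104 CPM with overexpression and 117, 119 and 125 CPM in controls. Each overexpression value lay below each control, and the fitted log2 difference was -0.23 ± 0.081 (SE; edgeR unadjusted p 0.022, adjusted p 0.797). CUL3, the scaffold of another ubiquitin ligase, was at 111, 120 and 113 CPM against 135, 128 and 134 CPM, again without overlap. The log2 ratio of overexpression to control was -0.21 ± 0.081 (SE; edgeR unadjusted p 0.0318, adjusted p 0.797). CFLAR, which encodes the caspase-8 inhibitor c-FLIP, had the largest negative value of the group at -0.51 ± 0.38 (SE). Control replicate 2 was at 76.6 CPM, and the other 5 libraries lay between 24.0 and 35.0 CPM.

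Among the mitochondrial factors 5 of 6 were higher, with a median of 0.13 and 0 at an unadjusted p under 0.05. ENDOG, a mitochondrial nuclease, was at 0.31 ± 0.14 (SE), and its groups did not overlap. DIABLO, which releases caspases from XIAP, was at -0.055 ± 0.20 (SE). The other caspases had 3 higher and 2 lower of 5 tested. CASP6, an executioner, had the largest positive value, 0.25 ± 0.11 (SE; edgeR unadjusted p 0.0513, adjusted p 0.797). CASP2 had the largest negative one, -0.58 ± 0.30 (SE). Its libraries were at 41.7, 47.1 and 22.9 CPM with overexpression and 78.5, 42.7 and 46.7 CPM in controls, with overexpression replicate 3 the lowest and control replicate 1 the highest.

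Of the other inhibitors of apoptosis, BIRC3 (cIAP2) was the one at an unadjusted p under 0.05. It was at 1.20, 1.86 and 2.42 CPM with overexpression and 3.88, 3.75 and 2.80 CPM in controls. These rest on 17 to 44 counts per library, and each overexpression value lay below each control. Overexpression against control gave a log2 ratio of -0.93 ± 0.30 (SE; edgeR unadjusted p 0.0137, adjusted p 0.797). BIRC5 (survivin), which also serves in mitosis, was at 0.42 ± 0.19 (SE). XAF1, an antagonist of XIAP, had at most 2 counts in any library. The list of 9 caspase substrates also holds DFFB, the DNase that is freed when caspases cut its inhibitor DFFA. Its values ran from -0.30 for DFFB to 0.22 for the actin-severing protein GSN.

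**Figure D5:**
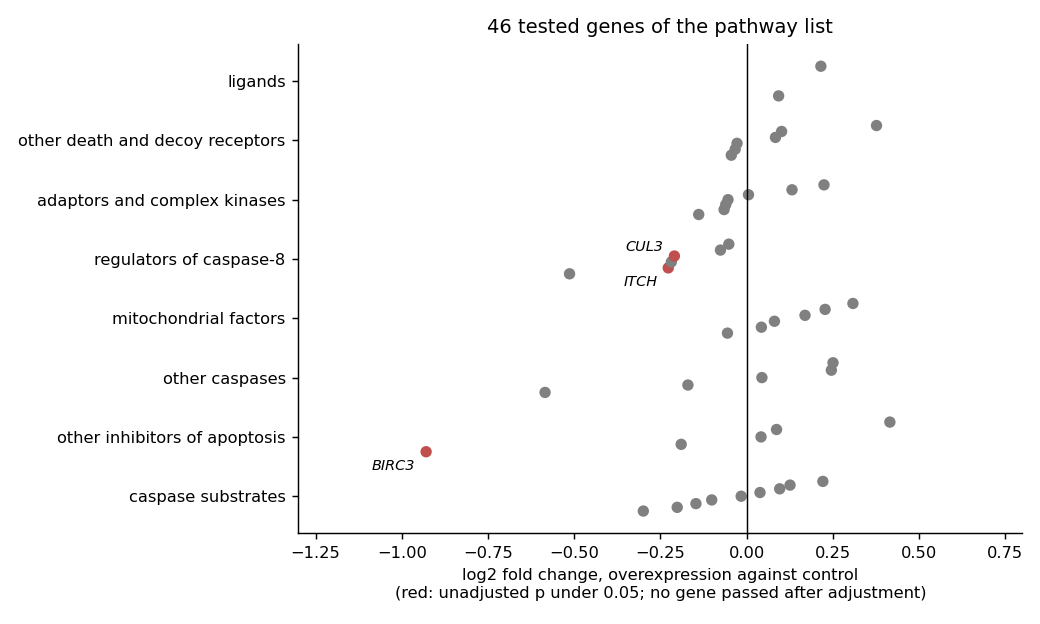
Log2 fold change of the 46 tested genes of the pathway list (x axis), grouped by role. Each point is 1 gene, and red points (ITCH, CUL3 and BIRC3) had an unadjusted p under 0.05 in edgeR. The list has 23 genes on each side of 0, and 0 genes passed after adjustment.

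Some genes of the list also differed widely between replicates of 1 group. BIRC2 was at 73.2 CPM in overexpression replicate 1 and 72.9 CPM in control replicate 1, and at 34.6 to 38.6 CPM in the other 4 libraries. CASP10, a paralogue of CASP8, was at 21.6 and 25.01 CPM in the same 2 libraries and at 9.46 to 10.7 CPM in the others. XIAP did not follow that pattern, being high in control replicate 1 and low in overexpression replicate 1.

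The similarity of profiles was described over the 6 libraries among the 53 tested genes of both lists, with Pearson's r of log2(CPM + 0.5). Most similar to XIAP was RIPK1 (r = 0.91). The most similar gene was TNFRSF12A for TNFRSF10B (0.96), TRAF2 for FADD (0.94), TNFRSF1A for TNFRSF10A (0.91), PIDD1 for CASP9 (0.89), CASP10 for CASP8 (0.88) and TNFRSF11B for APAF1 (0.73). These points share libraries and depth, and each value is the highest of 52. Control replicate 1 held the lowest value of FADD and TNFRSF10B and the highest of CASP8 and XIAP. How often it did so over all tested genes was not counted, so this is not a result about these genes.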

How the data were processed

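Per the labels, the submitters' processing notes name TopHat, TopHat2 2.0.9 and the build hg38. The counting tool, strand handling and annotation release were not given in the sources used here. The table the authors deposited gives, for every gene, unnormalized counts of reads in whole numbers beside FPKM, which divide by length and depth. Members and lists were chosen with earlier results of these data known.

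Genes were filtered with filterByExpr (minimum count 10) and tested with edgeR 4.0.16 in R 4.3.3 (glmQLFit and glmQLFTest on TMM-scaled totals, two-sided, no covariate), and p-values of 15055 genes were adjusted by Benjamini-Hochberg. CPM used TMM-scaled totals of the tested genes. The F statistic gave standard errors and 95% intervals. Exact permutation tests used log2(CPM + 0.5). A floor of 3 counts covers counting error only. Alternatives were DESeq2 1.42.0, upper-quartile and RLE scaling, other filters (1 count in total, or a mean of 50), limma 3.58.1 on log2(FPKM + 1) for genes at 1 FPKM in 3 libraries, a replicate block, sums with overlapping genes and leaving out each library. The fits were checked on simulated counts. Only genes with a mean of at least 50 counts were changed there, so the finding of changes at lower counts was not checked.

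Named were all members, pathway genes at an unadjusted p under 0.05, the highest and lowest of each role group (1 gene where fewer than 3 were tested), the most similar gene to each member, and SOX5. TNFSF10, FASLG, TNFRSF10C, TNFRSF10D, RIPK3, XAF1, PEA15, DFFA and BIRC2 fall outside this rule and were picked with their values known. Sequence shared between genes was counted by 31-base stretches of both strands present in at most 20 genes, and 50 or more such stretches counted as sharing.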

Additional observations from a re-analysis of the deposited data

How the results depend on the processing

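Of 93 values of the 7 tested genes under the alternatives, 88 kept their direction, 5 turned, and 0 passed an adjusted p of 0.05 (lowest 0.173, XIAP in DESeq2). Leaving out 1 library moved FADD between 0.14 and 0.26, TNFRSF10A between -0.053 and 0.25, TNFRSF10B between -0.071 and 0.13, CASP8 between -0.099 and 0.011, CASP9 between 0.083 and 0.34, APAF1 between -0.10 and 0.11 and XIAP between -1.41 and -0.67. TNFRSF10A turned without control replicate 2 (-0.053), TNFRSF10B (-0.071) and CASP8 (0.011) without control replicate 1, and APAF1 without overexpression replicate 2 (-0.10) or control replicate 2 (-0.079).

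The median of the tested genes was lowest at -0.066 (control replicate 2 left out) and highest at 0.13 (control replicate 3 left out), and 0 to 2 of them lay at an unadjusted p under 0.05, with 2 (XIAP and CASP9) without overexpression replicate 1 and 0 without control replicate 1. limma gave 0 there. XIAP and FAS did not reach 1 FPKM in 3 libraries and had no value in limma, and FAS has a fitted value only with no filter on counts. Its difference of mean log2(CPM + 0.5) ran from -0.78 to -0.33 when 1 library was left out. The pathway list's median was 0.011 under upper-quartile normalization, -0.020 with no filter, 0.049 in limma and 0.019 with the replicate block, and it ran from -0.016 to 0.055 when 1 library was left out. Its number at an unadjusted p under 0.05 was 5 under upper-quartile normalization, 5 in DESeq2, 6 with no filter and 1 to 5 when 1 library was left out. Over all genes DESeq2 called 8 higher and 20 lower. Leaving out 1 library gave 1 to 7 higher and 2 to 9 lower. Where an alternative tests other genes or fewer libraries its construction differs, and otherwise the cause was not tested.

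edgeR called 4 genes of the table higher and 2 lower, and with the replicate block 2 higher and 2 lower. With the block XIAP was at -1.04 (edgeR adjusted p 0.862, range over alternatives 0.173 to 0.979). It changed the call of no member. Correlations of the deviations of same-numbered libraries from their group means, taken over all tested genes, were -0.036, -0.023 and -0.031. These showed no pairing by number across the tested genes as a whole. Single genes can differ from this, as BIRC2 and CASP10 were high in replicate 1 of both groups. Whether same-numbered libraries were prepared together was not tested.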
